A study of Mus musculus with 6 samples.

Results

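Potassium channel genes were examined in RNA from the adult cerebellum of mice exposed to methylmercury (MeHg) before birth. The members were the protein-coding genes of the count table whose symbol is Kcn followed by subfamily letters and a number, and whose mean level over the 6 libraries was at least 1 CPM (counts scaled to the size of the library). Of 93 such genes among the 56748 genes of the table, 68 met this level. The members nearest the limit were Kcnk5 at 1.28 CPM and Kcnmb1 at 1.34 CPM, and the nearest genes left out were Kcna5 at 0.962 CPM and Kcnmb2 at 0.875 CPM. All 68 passed the filter on low counts used for testing.

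The libraries came from C57BL/6J mice aged 90 to 120 days, 3 per group. The dams of the MeHg group had 0.2 ppm MeHg, an organic mercury compound toxic to neurons, in their drinking water from the start of pregnancy to birth, and the dams of the control group had 0 ppm. No label names a dam or litter, and each p-value reflects only how far these 6 samples spread, which may be partly technical. Control replicate 3 and MeHg replicate 2 carry a male label and the other libraries a female one. Control replicate 2, labelled female, had Xist at 0.249 CPM and the Y-linked Ddx3y at 87.2 CPM, like the library labelled male in its group. By these genes Control replicates 2 and 3 and MeHg replicate 2 were male and the others female. Sex was then not balanced between the groups, and no fit used the sex read from the RNA. Values without Control replicate 2 are given for the called genes. They are also given for the 8 members whose log2 fold change moved by over 0.3 when it was left out (no member changed sign). Library totals ran from 14116088 to 20303833 counts. The defining genes of cerebellar neurons were abundant in every library, and the markers of 2 neighbouring tissues varied. The summed level of 12 choroid plexus markers was 31.3 to 2045 CPM in controls and 1683 to 7165 CPM in MeHg, and that of the 6 brainstem and midbrain markers tested was 32.0 to 72.8 CPM in controls, 65.8 and 69.2 CPM in MeHg replicates 1 and 3 and 280.2 CPM in MeHg replicate 2.

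Potassium channels let potassium leave the neuron, which holds the resting potential negative, ends the action potential and sets the interval to the next one. Voltage-gated subunits (Kcna to Kcnd, Kcnq, Kcnh) open on depolarisation, calcium- and sodium-activated subunits (Kcnm, Kcnn, Kcnt) open after spikes, inward rectifiers (Kcnj) pass current near rest and include channels opened by G proteins or closed by ATP, and the K2P subunits (Kcnk) form leak channels. In the cerebellum granule cells are known for their leak channels, Purkinje cells and interneurons for fast voltage-gated channels, and glia for inward rectifiers that clear potassium.

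The G protein-gated inward rectifier subunits Kcnj3 and Kcnj6 and the leak channel Kcnk10 fell. The call is an adjusted p under 0.05 by the quasi-likelihood test of edgeR, with the Benjamini-Hochberg adjustment taken over all 16859 genes tested. They were 3 of 68 members, or 4.41%, beside 1.79% of all tested genes called lower and 2.36% called in either direction. No member was called higher, beside 0.575% of all tested genes, although DESeq2 called 2 members higher and 9 lower, beside 3.66% and 5.31% of all genes it tested. Without a filter on low counts edgeR called 9 members higher and 11 lower, beside 3.73% and 3.66% of all genes. At an unadjusted p under 0.05, 16 members were lower and 13 higher, 23.5% and 19.1% of the members, beside 12.7% and 11.8% of all tested genes. In 16 members all 3 MeHg libraries lay below all 3 controls and in 12 they lay above, which is 23.5% and 17.6% of the members beside 15.5% and 13.9% of all tested genes. The median log2 fold change over the members was 0.09, beside 0.01 over all tested genes. The fold change was negative in 29 members (42.6%) and in 48.9% of all tested genes.

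The number of members called depended on the libraries in the fit. Without Control replicate 2, whose sex label its RNA does not match, the log2 fold changes of Kcnj3, Kcnj6 and Kcnk10 were -0.44, -0.90 and -0.46, with adjusted p of 0.0503, 0.0524 and 0.0497. Over all genes 172 were then called lower, 48 higher. The number of members called was 0 without Control replicate 1, Control replicate 3, MeHg replicate 1 or MeHg replicate 3. In these fits 0 of all genes were called lower and 0 to 2 higher. The number was 1 (Kcnk10) without Control replicate 2. It was 8 lower and 0 higher without MeHg replicate 2, beside 4.16% and 2.16% of all genes. Without both libraries numbered 2 it was 9 lower and 3 higher, beside 6.65% and 3.61% of all genes, and with an offset for gene length it was 0, as over all genes.

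**Figure D1:**
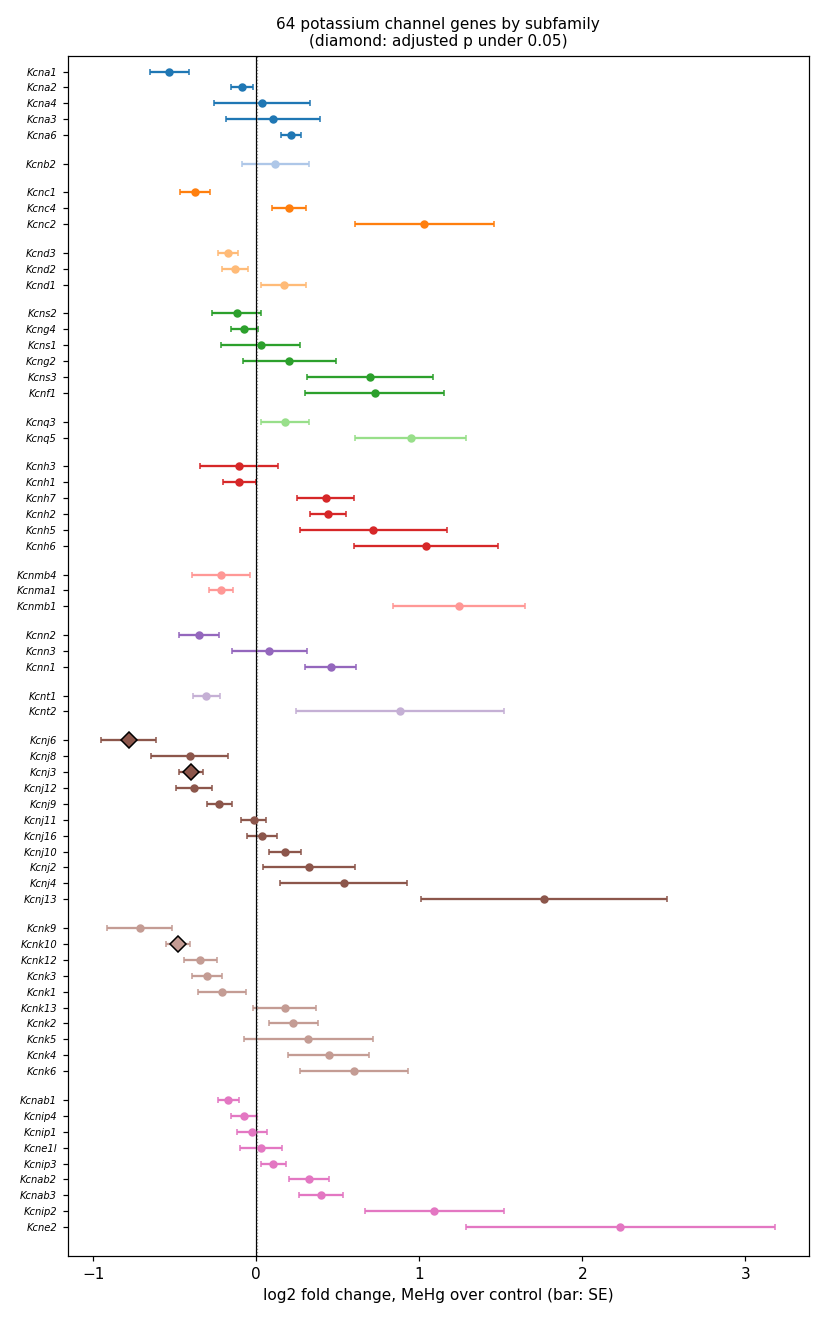
Log2 fold change (MeHg over control, horizontal axis, bars are the SE) of 64 of the 68 potassium channel genes, in rows grouped and coloured by subfamily. The 3 called genes, Kcnj6, Kcnj3 and Kcnk10, are diamonds left of zero, and the points farthest to the right are Kcne2 at 2.23 and Kcnj13 at 1.76, with wide bars.

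The DNA just before the start of the 3 called genes is shown to place them in the genome. Sequences are those of the RefSeq promoter table, placed by exact match on GRCm39 (mm39), and only bases outside the gene model of the count table are printed, 5′ to 3′ on the strand of the gene. Kcnj3 is at chr2:55325732-55325981 (plus strand), Kcnj6 at chr16:94798561-94798805 (minus strand, the first of 2 listed start sites) and Kcnk10 at chr12:98544570-98544722 (minus strand, the first of 2).
Kcnj3: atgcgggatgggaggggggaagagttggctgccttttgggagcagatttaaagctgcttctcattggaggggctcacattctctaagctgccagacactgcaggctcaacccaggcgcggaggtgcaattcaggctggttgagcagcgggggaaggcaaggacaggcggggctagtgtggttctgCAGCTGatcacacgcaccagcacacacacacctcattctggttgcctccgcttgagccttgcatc
Kcnj6: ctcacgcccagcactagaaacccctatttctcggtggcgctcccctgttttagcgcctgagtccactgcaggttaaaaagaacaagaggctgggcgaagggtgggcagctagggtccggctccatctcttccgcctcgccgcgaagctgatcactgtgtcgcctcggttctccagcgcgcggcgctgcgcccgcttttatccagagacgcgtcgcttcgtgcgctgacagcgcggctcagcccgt
Kcnk10: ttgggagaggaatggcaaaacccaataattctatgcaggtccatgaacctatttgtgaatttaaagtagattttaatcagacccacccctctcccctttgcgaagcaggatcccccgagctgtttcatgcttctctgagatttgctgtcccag
Capitals mark CAGCTG, an E-box. The motifs searched on both strands, in the 250 bases before the first listed start site, were the GC box GGGCGG, the E-box CAGCTG, a second E-box spelled CACGTG and the cAMP response element TGACGTCA, and the counts are of promoters with at least 1 match. The GC box was found before 27 of the 50 members that had an entry (54.0%) and before 32.9% of all 27025 promoters. CAGCTG was found before 14 members (28.0%) and 12.8% of promoters, the second E-box before 1 member and 6.05%, and the cAMP response element before 0 members and 1.62%. Members had a median G and C content of 61.4% in this window and all promoters 52.0%. Of the 3 called genes, Kcnj3 held 1 CAGCTG and Kcnk10 held 1 GGGCGG, which lies within the gene model and is not printed.

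Among the inward rectifiers, the G protein-gated subunits Kcnj3 and Kcnj6 fell, and Kcnj9 did not pass. These channels, which Gi/o-coupled receptors such as the GABA-B receptor open through G protein beta-gamma subunits, slow firing. Kcnj3 (ENSMUSG00000026824, chromosome 2, 55325982 to 55488157, mm39) was at 162, 144 and 150 CPM in control replicates 1, 2 and 3 and at 124, 114 and 107 CPM in MeHg replicates 1, 2 and 3. The lowest control was above the highest MeHg library, and the log2 fold change was -0.40 ± 0.07 (SE, adjusted p = 0.0431). Kcnj6 (chromosome 16, 94549495 to 94798560), the subunit affected in the weaver mouse, whose granule cells die, was at 12.8, 10.3 and 13.4 CPM in controls and at 6.74, 8.24 and 6.20 CPM in MeHg. The groups did not overlap, and the level fell by 41.9% (log2 fold change -0.78 ± 0.17, adjusted p = 0.0491). Kcnj9 (chromosome 1, 172148068 to 172156885), which joins the other subunits in mixed channels, was at 190, 166 and 179 CPM in controls and at 166, 144 and 148 CPM in MeHg, where the highest library lay just under the lowest control, and did not pass (-0.23 ± 0.08, adjusted p = 0.120). Compared per length, the summed level of the 3 subunits was 68.0 ± 4.51 FPKM (SD, n = 3) in controls and 54.7 ± 3.98 FPKM in MeHg, most of it from Kcnj9 (36.2 FPKM over all libraries) and Kcnj3 (23.9 FPKM), and little from Kcnj6 (1.18 FPKM). The remaining subunit of these channels, Kcnj5, was under the level for members and not tested, at 0.282 ± 0.231 CPM (SD, n = 3) in controls and 0.592 ± 0.644 CPM in MeHg. Exons of Kcnj3 overlap those of Gm74713 on the other strand by 1282 bases, those of Kcnj6 overlap Gm41505 by 1437 bases, and those of Kcnj9 overlap Igsf8 by 1103 bases. The strand handling of the counts is not given in the sources used here, so part of these counts could belong to the other gene, as in the 36 of 68 members whose exons overlap a gene on the other strand. Gm41505 had 46 to 136 counts and Igsf8 2401 to 3762.

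Granule cells are the main source of several of these channels, and their markers were lower in the same libraries. All 14 granule cell markers had a negative log2 fold change (median -0.39) and 7 were called lower, and their summed level was 8454 to 8986 CPM in controls and 6243 to 7210 CPM in MeHg. In bulk tissue fewer cells of a type and less RNA per cell cannot be told apart, and the part of the granule markers in the results for channel genes was not tested.

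The remaining inward rectifiers did not pass in edgeR. Kcnj12, a strong rectifier of the classical kind, was at 115, 100 and 108 CPM in controls and at 97.8, 72.9 and 77.1 CPM in MeHg, without overlap (-0.38 ± 0.11, adjusted p = 0.0872), and DESeq2 called it lower (adjusted p = 0.0212). Its relatives Kcnj2 (0.32 ± 0.28) and Kcnj4 (0.54 ± 0.39) stood at 5.19 CPM or less in every library, and Kcnj4 was at 0.90 without Control replicate 2. Kcnj10, the main potassium channel of astrocytes and Bergmann glia, was at 259, 277 and 269 CPM in controls and at 278, 355 and 278 CPM in MeHg. The groups touched without overlapping, MeHg replicate 2 stood above the others, and the log2 fold change was 0.18 ± 0.10 (adjusted p = 0.297) with all libraries and 0.06 without that library. The 10 astrocyte and Bergmann glia markers summed to 4010 to 4165 CPM in controls and 3760 to 3898 CPM in MeHg. Kcnj16, its partner in glia, was at 34.3 ± 2.93 CPM (SD, n = 3) in controls and 35.1 ± 1.63 CPM in MeHg (0.03 ± 0.09). The pores of ATP-sensitive channels were Kcnj11 (53.3 ± 2.05 and 52.7 ± 3.94 CPM, log2 fold change -0.02 ± 0.08), found in neurons, and Kcnj8 (4.85 ± 0.89 and 3.64 ± 0.87 CPM, -0.41 ± 0.24, adjusted p = 0.325), a channel of pericytes and vascular muscle. The sulfonylurea receptor gene Abcc8, the regulatory subunit that assembles with Kcnj11, fell from 114, 104 and 138 CPM to 85.1, 79.5 and 74.4 CPM (-0.57 ± 0.10, adjusted p = 0.0431), while Abcc9, the partner of Kcnj8 and a pericyte marker, was at -0.12 ± 0.15. The difference between the pore and the receptor was not tested.

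**Figure D2:**
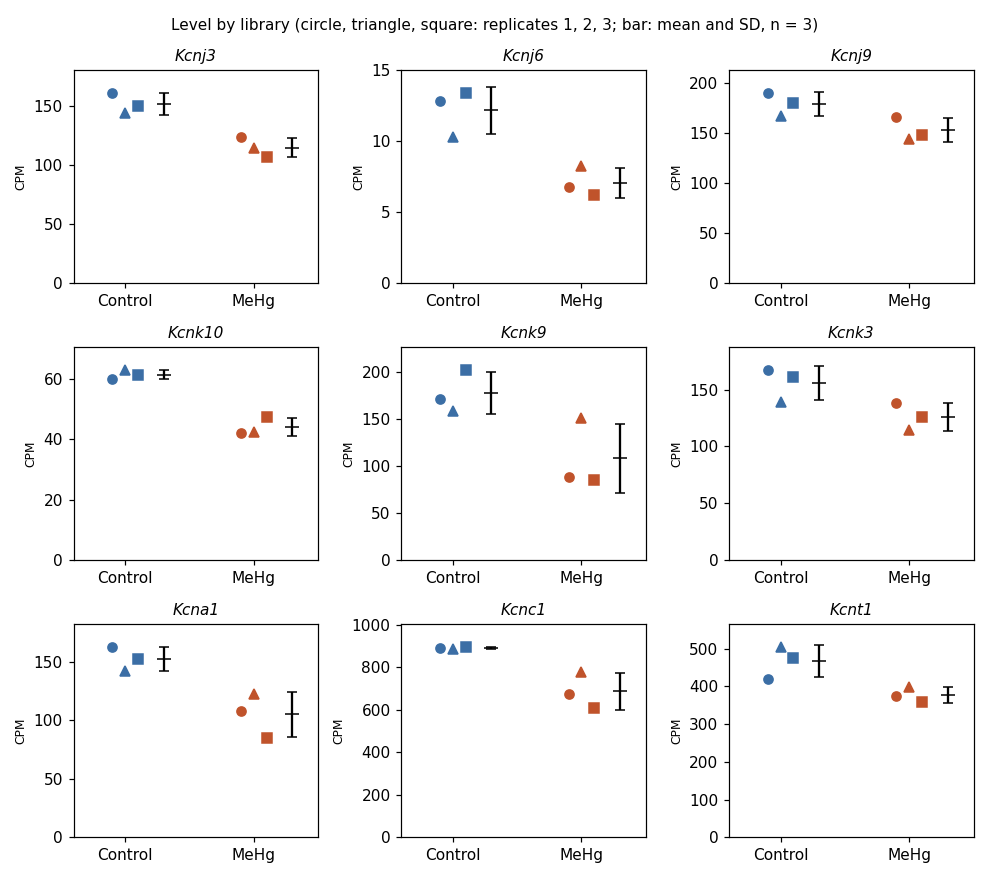
CPM by library (vertical axis from zero) for 9 potassium channel genes, with circles, triangles and squares for replicates 1, 2 and 3 and a bar for the mean and SD of 3 libraries. In each panel the 3 MeHg libraries lie below the 3 controls, and for Kcnk9 MeHg replicate 2, at 151 CPM, lies near the lowest control at 159 CPM. The 9 genes all belong to the 16 members that are lower without overlap. None of the 12 members that are higher without overlap is drawn.

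Leak channels of the K2P family held the third called gene and the granule cell channel Kcnk9. Kcnk10, a channel opened by stretch, heat and lipids (chromosome 12, 98395696 to 98544569), was at 59.9, 62.9 and 61.0 CPM in controls and at 42.0, 42.3 and 47.3 CPM in MeHg. The 3 controls lay within a narrow band above all MeHg libraries, and the level fell by 28.4% (log2 fold change -0.48 ± 0.08, adjusted p = 0.0431). Kcnk9, an acid-sensitive leak channel that gives granule cells their standing outward current (chromosome 15, 72372938 to 72418189), was at 172, 159 and 203 CPM in controls and at 88.4, 151 and 85.5 CPM in MeHg. The MeHg libraries all lay below the controls, but replicate 2 was close to them, and the log2 fold change of -0.71 ± 0.20 did not pass (adjusted p = 0.0835). Without MeHg replicate 2, the only MeHg library labelled male, it was -1.02 with an adjusted p of 0.00451. With the labelled sex in the model, which takes Control replicate 2 as female, the gene passed (adjusted p = 0.0342). Kcnk9 passed in 4 of 19 alternative settings, with adjusted p up to 0.287, and DESeq2 did not call it (adjusted p = 0.121). MeHg replicate 2 had the lowest sum of granule markers of all 6 (6243 CPM) and the highest Kcnk9 of its group. It also had the highest sum of brainstem and midbrain markers (280.2 CPM), and the part of these markers in the Kcnk9 values was not tested.

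The relatives of these channels spread to both sides. Kcnk3, the acid-sensitive partner of Kcnk9 in granule cells, was at 167, 139 and 161 CPM in controls and at 138, 114 and 126 CPM in MeHg, which did not overlap by a small margin (-0.30 ± 0.09, adjusted p = 0.0960). Kcnk12, a subunit known to be nearly silent on its own, was at 60.8 ± 2.79 and 47.9 ± 6.25 CPM (-0.34 ± 0.10, adjusted p = 0.0893). Kcnk1, a weakly conducting channel and the most abundant leak subunit per length (79.0 FPKM), varied within both groups, at 224, 169 and 213 CPM and at 202, 138 and 184 CPM (-0.21 ± 0.15, adjusted p = 0.411). Kcnk2, the near relative of Kcnk10, was at 0.23 ± 0.15 (adjusted p = 0.392). Kcnk13, a channel of microglia, was at 0.17 ± 0.19, and Kcnk4, Kcnk5 and Kcnk6, all at 4.33 CPM or less, were at 0.44, 0.32 and 0.60 without passing. Of the 10 members of the subfamily 5 had a negative and 5 a positive fold change, and the summed level was 178 ± 17.2 FPKM in controls and 147 ± 14.2 FPKM in MeHg (SD, n = 3).

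Voltage-gated subunits made up the largest part of the potassium channel RNA per length, led by the Kcnc subfamily with 22.9% of the summed FPKM of all members. Kcnc channels close quickly and allow fast firing. Kcnc1, present in granule cells and their parallel fibres, was at 892, 886 and 895 CPM in controls, which nearly coincided, and at 675, 776 and 607 CPM in MeHg, all lower (-0.38 ± 0.09, adjusted p = 0.0639). It passed without MeHg replicate 2 (-0.47, adjusted p = 0.0115). Kcnc4 was at 0.20 ± 0.11, and the scarce Kcnc2, a subunit of inhibitory interneurons, was at 6.09, 17.6 and 12.6 CPM in controls and at 18.6, 40.7 and 14.8 CPM in MeHg (1.03 ± 0.43, adjusted p = 0.183), with its highest value in MeHg replicate 2. It was at 0.48 without that library and at 1.42 without Control replicate 2.

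Kcna subunits sit at axons and at the basket cell endings on Purkinje cells. Kcna1, the gene of episodic ataxia with myokymia (chromosome 6, 126617360 to 126623347), was at 163, 142 and 153 CPM in controls and at 108, 123 and 84.8 CPM in MeHg, without overlap. The log2 fold change of -0.53 ± 0.12 missed the threshold (adjusted p = 0.0532) and passed in 6 of 19 alternative settings, with values from -0.70 to -0.40. Kcna2, which assembles with Kcna1, was at 498 ± 17.4 and 469 ± 20.4 CPM (-0.09 ± 0.07, adjusted p = 0.466), and Kcna6 was higher in all MeHg libraries without passing (70.0 ± 2.98 and 81.2 ± 1.53 CPM, 0.21 ± 0.06, adjusted p = 0.0885). Kcna3 and Kcna4 stood at 7.85 CPM or less in every library, at 0.10 ± 0.29 and 0.04 ± 0.29, and at -0.32 and -0.38 without MeHg replicate 2.

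Kcnd subunits carry the transient current that delays firing of granule cells. Kcnd2, the granule cell subunit, was at 298, 271 and 280 CPM in controls and at 281, 231 and 262 CPM in MeHg, which overlapped (-0.13 ± 0.08, adjusted p = 0.354). Kcnd3, a gene of a spinocerebellar ataxia, was at 137, 143 and 143 CPM and at 130, 128 and 116 CPM, without overlap and without passing (-0.17 ± 0.06, adjusted p = 0.138). Kcnd1 was at 0.17 ± 0.14. The slow delayed rectifier Kcnb2 was at 0.12 ± 0.21. The subunits that form no channel alone but modify Kcnb channels (Kcnf, Kcng and Kcns) gave 6 members, of which 4 were positive and 2 negative. Kcng4, the abundant one (47.1 FPKM), was at 196 ± 12.1 and 187 ± 18.3 CPM (-0.07 ± 0.08, adjusted p = 0.629), and 0.00 without MeHg replicate 2. Kcns3, at 1.67, 2.00 and 1.44 CPM in controls and 2.16, 4.58 and 1.62 CPM in MeHg, had the smallest p of these 6 (0.70 ± 0.39, adjusted p = 0.301).

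Kcnq channels open below the spike threshold and restrain repetitive firing. Kcnq3 was at 0.17 ± 0.15 and had its highest value in MeHg replicate 2. Kcnq5 was at 2.59, 3.09 and 3.02 CPM in controls and at 4.88, 8.70 and 3.17 CPM in MeHg (0.95 ± 0.34, adjusted p = 0.137), without overlap. Among Kcnh genes, Kcnh2, whose channel reopens as the spike decays and is best known from the heart, was at 51.8, 64.2 and 55.3 CPM in controls and at 73.4, 89.1 and 70.4 CPM in MeHg, all above the controls (0.44 ± 0.11, adjusted p = 0.0645). It was called with the replicate number as a block, with DESeq2, without a filter and without both libraries numbered 2. Kcnh6, Kcnh5 and Kcnh7 had positive fold changes (1.04 ± 0.44, 0.72 ± 0.45 and 0.43 ± 0.17), each with its highest value in MeHg replicate 2. Without that library they were at 0.43, 0.07 and 0.27, and Kcnh5 was at 1.06 without Control replicate 2. Kcnh6 was at 3.79 CPM there and between 0.812 and 1.69 CPM in the other 5 libraries. Kcnh1 and Kcnh3 were at -0.10 and -0.11.

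Channels opened by calcium or sodium shape the pauses after spikes. Kcnma1, the pore of the large-conductance calcium-activated channel (chromosome 14, 23339499 to 24064559), was at 278, 297 and 313 CPM in controls and at 272, 246 and 247 CPM in MeHg, without overlap and without passing (-0.22 ± 0.07, adjusted p = 0.116). With an offset for gene length its adjusted p was 0.477. Its accessory subunit Kcnmb4, the neuronal form, was at -0.22 ± 0.18. Kcnmb1, the form of smooth muscle, was at 0.406, 1.10 and 0.862 CPM in controls and at 1.30, 2.03 and 2.29 CPM in MeHg (1.24 ± 0.41, adjusted p = 0.115), with no overlap. Its control mean was 0.789 CPM, so it met the level for members only through the MeHg group. Kcnmb1 is 1 of the 12 members counted as higher without overlap and 1 of the 13 higher at an unadjusted p under 0.05. Among the members under the median FPKM it is 1 of the 28 with a positive fold change and 1 of the 7 higher without overlap. Without Control replicate 2 it was at 1.60. The summed level of the 7 mural cell markers tested was 158 to 179 CPM in controls and 176 to 225 CPM in MeHg, and their part in this value was not tested. Kcnn2, the small-conductance channel of Purkinje cells, was at 38.2, 35.1 and 38.6 CPM in controls and at 34.3, 29.0 and 24.5 CPM in MeHg, all lower (-0.35 ± 0.12, adjusted p = 0.131), and Kcnn1 was higher in all MeHg libraries, at 7.21 ± 1.15 and 9.93 ± 0.66 CPM (0.46 ± 0.16, adjusted p = 0.131). Of the 12 Purkinje cell markers 1 was called lower, and 10 had a negative and 2 a positive fold change. They summed to 8303 to 9156 CPM in controls and 6397 to 8250 CPM in MeHg. Itpr1 made up much of this sum, at 4060, 3725 and 4315 CPM in controls and 3562, 2986 and 2902 CPM in MeHg. The mean log2(CPM + 0.5) of the markers overlapped between the groups, at 8.13, 8.09 and 8.18 in controls and 8.14, 7.75 and 8.03 in MeHg. The part of these markers was not tested. Kcnn3 was at 0.08 ± 0.23. Kcnt1, the sodium-activated channel, was at 421, 504 and 474 CPM in controls and at 374, 399 and 358 CPM in MeHg, all lower (-0.31 ± 0.08, adjusted p = 0.0771), and passed without MeHg replicate 2 (-0.34, adjusted p = 0.0384). The scarce Kcnt2 was at 0.406, 2.54 and 0.719 CPM in controls and at 1.11, 3.66 and 2.16 CPM in MeHg, highest in the libraries numbered 2. Its log2 fold change was 0.88 ± 0.64 with all libraries, 2.06 without Control replicate 2 and 0.39 without MeHg replicate 2.

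Accessory subunits of voltage-gated channels did not pass in edgeR in either direction. The cytoplasmic beta subunits that attach to Kcna channels differed in sign. Kcnab1 was lower in all MeHg libraries (172 ± 7.67 and 152 ± 9.31 CPM, -0.17 ± 0.07, adjusted p = 0.155), while Kcnab2 (169 ± 4.77 and 211 ± 44.0 CPM, 0.32 ± 0.12, adjusted p = 0.157) and Kcnab3 (38.1 ± 7.45 and 50.2 ± 3.45 CPM, 0.40 ± 0.13, adjusted p = 0.122) were higher. DESeq2 called Kcnab3 higher (adjusted p = 0.0469), and so did edgeR without both libraries numbered 2 (adjusted p = 0.0186). Kcnab2 stood at 262 CPM in MeHg replicate 2 and at 184 and 188 CPM in the others, and its exons overlap those of Chd5 by 402 bases and of Nphp4 by 333 bases on the other strand. The calcium-binding subunits of Kcnd channels gave Kcnip4 at -0.08 ± 0.08, Kcnip3 at 0.10 ± 0.07, Kcnip1 at -0.03 ± 0.09 and the scarce Kcnip2 at 1.09 ± 0.43 (adjusted p = 0.163), which was at 1.72, 7.38 and 4.60 CPM in controls and 11.3, 11.1 and 6.81 CPM in MeHg. Kcnip2 was at 1.66 without Control replicate 2, and was called higher without both libraries numbered 2 (1.58, adjusted p = 0.0372). The single-pass subunit Kcne1l was at 0.03 ± 0.13.

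A pair of members of the choroid plexus epithelium had the largest fold changes and the largest spread. Kcne2, a single-pass subunit that works with Kcnq1 in that epithelium, was at 16.5, 3.79 and 0 CPM in controls and at 23.4, 10.7 and 64.8 CPM in MeHg (2.23 ± 0.95, adjusted p = 0.191). The count of 0 in Control replicate 3 allows a level of up to 0.213 CPM (3 counts). Kcnj13, the inward rectifier of the same cells, was at 9.28, 2.10 and 0.647 CPM in controls and at 14.0, 5.10 and 23.1 CPM in MeHg (1.76 ± 0.75, adjusted p = 0.194), and its exons overlap those of Gigyf2 on the other strand by 669 bases. Leaving out 1 library gave 1.30 (without MeHg replicate 3) to 3.97 (without Control replicate 1) for Kcne2 and 1.22 to 3.28, without the same libraries, for Kcnj13. Without Control replicate 2 they were at 1.93 and 1.44. For both genes the groups overlapped, with Control replicate 1 above MeHg replicate 2. The libraries had the same order in both genes and in the summed level of the choroid plexus markers, from Control replicate 3 (31.3 CPM) over Control replicate 2 (451 CPM), MeHg replicate 2 (1683 CPM), Control replicate 1 (2045 CPM) and MeHg replicate 1 (2953 CPM) to MeHg replicate 3 (7165 CPM). All 12 markers had a positive fold change, 0 were called by edgeR (6 had an unadjusted p under 0.05), and none was at 0 in all libraries. The part of the markers in both results was not tested.

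**Figure D3:**
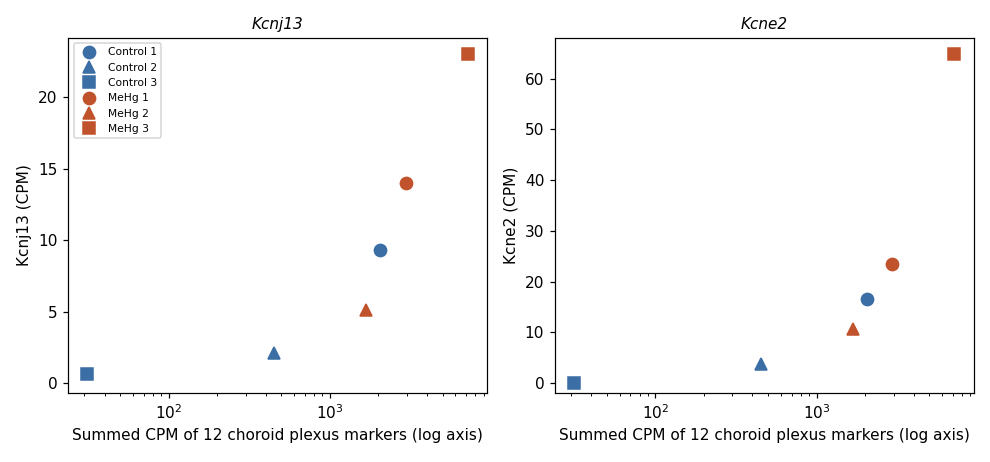
CPM of Kcnj13 (left) and Kcne2 (right) against the summed CPM of 12 choroid plexus markers on a log axis, 1 point per library, blue for control and orange for MeHg. Both genes follow the order of the markers, from Control replicate 3 at the lower left to MeHg replicate 3 at the upper right.

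Members were also compared by level. Split at the members' median of 5.00 FPKM over all libraries, 23 of the 34 more abundant members had a negative fold change (median -0.12) and 28 of the 34 scarcer members a positive one (median 0.22). All tested genes split at the same level had medians of -0.02 above and 0.06 below it. In 14 of the abundant members, and in 2 of the scarce ones, all MeHg libraries lay below all controls, and they lay above in 5 and 7. As shares, this was 41.2% and 5.88% lower and 14.7% and 20.6% higher, beside 21.0% and 10.6% lower and 13.7% and 14.1% higher among all tested genes at or above and under the same level. Across the 68 members the rank correlation of fold change with FPKM was -0.56, beside -0.17 across all 16859 tested genes, and with exonic length it was -0.22 beside -0.21. The level that splits the members is a mean over both groups. Kcne2 (3.60 FPKM in controls and 17.5 FPKM in MeHg) and Kcnj13 (2.97 and 10.4 FPKM) were among the abundant members only through the MeHg group. Kcnk10 (6.56 and 4.67 FPKM), which is among the 14 lower without overlap, was abundant only through the controls. The counts, shares and correlations are descriptions across genes measured in the same 6 libraries that set the levels.

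MeHg replicate 2 stood apart in the scarce members. Of the 68 members 25 had their highest level in that library, 36.8%, beside 22.7% of all tested genes, and 20 of these were among the 34 scarcer ones. In the scarcer members the median deviation from the control mean was 0.52 on the log2 scale in MeHg replicate 2 and 0.06 and 0.07 in MeHg replicates 1 and 3, and it reached 0.16 in Control replicate 2. Among the abundant members it was -0.20 in MeHg replicate 2, -0.04 in replicate 1 and -0.12 in replicate 3. The same library had the highest sum of brainstem and midbrain markers (280.2 CPM) and of 8 oligodendrocyte markers (8052 CPM against 5228 to 6460 CPM elsewhere), and the part of these markers was not tested. Without it the median over the scarcer members was 0.11 and over the abundant ones -0.05.

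**Figure D4:**
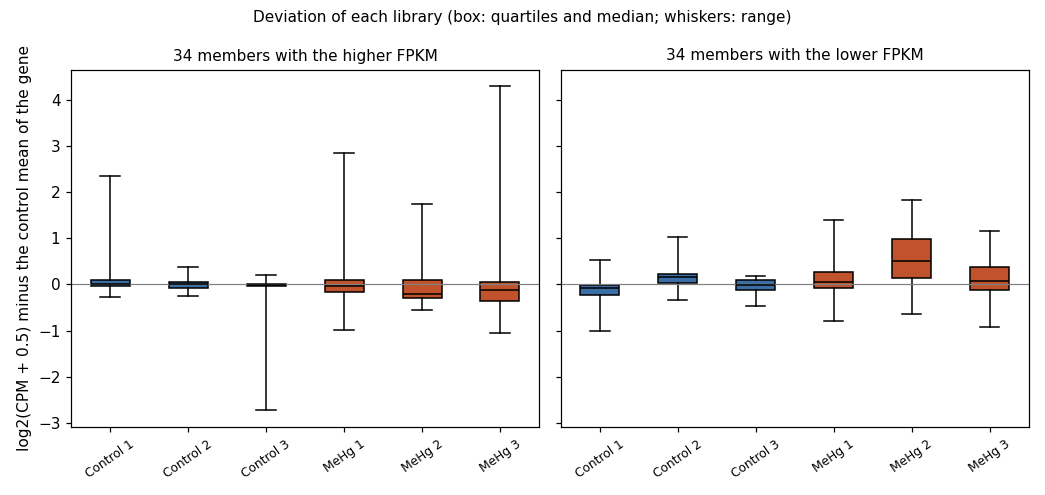
Deviation of log2(CPM + 0.5) from the control mean of each gene, by library, for the 34 members with the higher (left) and the lower FPKM (right), as boxes of quartiles and median with whiskers over the full range. Among the scarcer members MeHg replicate 2 has the highest box, with a median of 0.52.

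**Figure D5:**
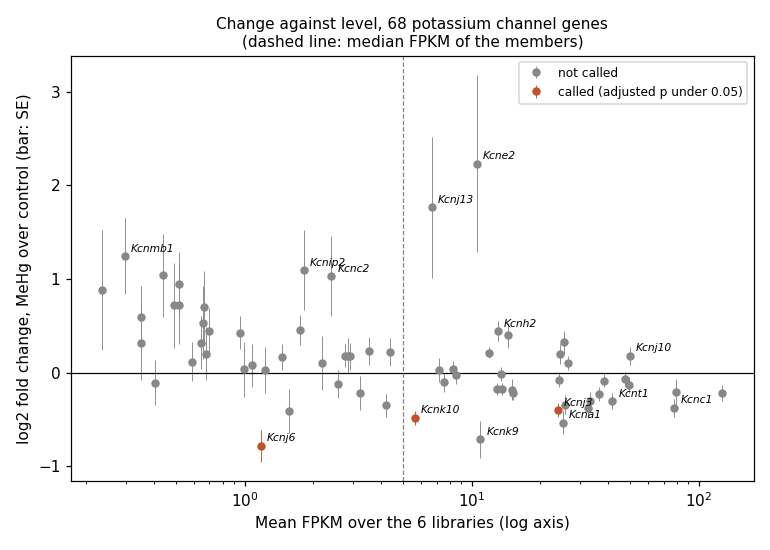
Log2 fold change (MeHg over control, bars are the SE) against mean FPKM on a log axis for the 68 members, with the 3 called genes in orange and a dashed line at the median of 5.00 FPKM. Most points right of the line lie below zero and most points left of it above zero.

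Genes that work with potassium channels came from a list of 39 partners, pumps and related channels, of which 38 were tested. By edgeR 2 were called lower and 0 higher, beside 1.79% and 0.575% of all tested genes. At an unadjusted p under 0.05, 12 were lower and 3 higher, beside 12.7% and 11.8% of all tested genes. The median was -0.06, beside 0.01 over all tested genes. Those called were Abcc8 and Dlg2, a scaffold that holds Kcna and Kcnj channels at synapses and axons, which fell from 408, 377 and 419 CPM to 317, 319 and 283 CPM (-0.39 ± 0.07, adjusted p = 0.0433). Kctd12, a subunit of the GABA-B receptor complex that opens G protein-gated channels, was at 368, 292 and 336 CPM in controls and at 274, 244 and 236 CPM in MeHg, all lower (-0.40 ± 0.10, adjusted p = 0.0590). The Kcnd partner Dpp10 was at -0.21 ± 0.06 (adjusted p = 0.0863) and Dpp6 at -0.12 ± 0.08, and the axonal partners of Kcna channels Cntnap2, Cntn2 and Adam22 were at 0.04, -0.15 and -0.21 without passing. The pacemaker channel Hcn2, which opens on hyperpolarisation, was at 0.31 ± 0.08 (adjusted p = 0.0796).

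Other voltage-gated channel families are given for scale. Of 10 sodium channel genes 1 was called lower and of 23 calcium channel genes 3, beside 1.79% of all tested genes. Their medians were 0.06 and -0.05, and edgeR called 0 higher in either. At an unadjusted p under 0.05, 3 and 6 genes were lower and 2 and 3 higher, beside 12.7% and 11.8% of all tested genes. No test compared these families with the potassium channel genes.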

How the data were processed

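Cerebellar RNA of 6 mice was sequenced from both ends on the NovaSeq platform, per the labels' protocols. The submitters' processing notes name the build mm39 and DESeq2. Which aligner, counting program, annotation and strand setting were used is not given in the sources used here. Raw counts per gene were deposited by the authors. The FPKM values deposited beside them equal the count per kilobase of gene over a library size that came out at 1.04 to 1.09 times the summed counts. The library totals of 14116088 to 20303833 counts limit the precision of scarce genes, whose levels also varied between libraries of a group.

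Genes were filtered with filterByExpr, scaled by TMM and compared between MeHg and control by edgeR 4.0.16 (quasi-likelihood F test, R 4.3.3), with no other term, over all 16859 genes tested. A gene was called at a Benjamini-Hochberg adjusted p under 0.05. CPM values use TMM-scaled library sizes, except in the member rule, which uses plain totals. The SE is the log2 fold change over the square root of F. FPKM was used to compare genes, for summed levels of several subunits by group, and as an alternative (limma 3.58.1, on log2 of FPKM plus 1 or 0.1). The members and lists were chosen with earlier results of these data known. Named by rule were called members, the smallest p of each subfamily, the 5 largest changes, the 10 highest FPKM and 18 genes of known role. Other members are named to account for the family, after their values were seen, and some genes, the rule's among them, are not reported here by name. The test was checked on simulated data. Libraries of a group were no copies (chi-square per degree of freedom 7.74 to 19.6). Alternatives were other scalings, filters, tests (DESeq2 1.42.0, limma-voom), the replicate block, labelled sex, loess offsets for length and GC content, and leaving out libraries.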

Additional observations from a re-analysis of the deposited data

How the results depend on the processing

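Of the 68 members 50 kept the sign of their fold change under all 19 alternatives. The other 18, none of them called, changed it in at least 1, most often without MeHg replicate 2 (13 members, among them Kcna3, Kcna4, Kcnb2, Kcnk13, Kcnn3 and Kcnq3). Of the 32 genes named by rule 3 did so. Kcng4 was at 0.0403 and Kcnip4 at 0.0138 when both libraries numbered 2 were left out, and Kcnj16 at -0.0443 with an offset for gene length. Leaving out each library in turn gave -0.1505 to 0.0005 for Kcng4 and -0.1291 to 0.0043 for Kcnip4, both above zero without MeHg replicate 2, and -0.0163 to 0.1017 for Kcnj16, below zero without Control replicate 1. Kcnj3 was called in 10 of 19 settings (log2 fold change -0.46 to -0.35, adjusted p 6.66e-05 to 0.207), Kcnk10 in 11 (-0.54 to -0.42, adjusted p 7.15e-05 to 0.207) and Kcnj6 in 7 (-1.01 to -0.42, adjusted p 0.000856 to 0.220). Members called lower and higher numbered 3 and 0, but 11 and 9 without a filter on low counts, 9 and 2 with DESeq2, 6 and 0 with labelled sex, 10 and 2 at an adjusted p under 0.1, 9 and 3 without both libraries numbered 2, and 0 and 0 with limma on log2 FPKM plus 1 or 0.1 and with offsets for length or for length and GC content. Leaving out each library in turn gave 0 to 8 lower and 0 higher. Libraries with the same number did not all deviate together (correlations of 0.187, 0.346 and -0.236, and Control replicate 1 was closer to MeHg replicate 3, at 0.358). These correlations cannot tell whether such libraries share a batch or litter, which was not tested. With the replicate block 5 members were lower and 1 higher, among them Kcna1, Kcnj12, Kcnk3 and Kcnh2 but not Kcnj6. Over all genes 390 were then lower and 258 higher. In this block 1 partner gene was called higher.

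Over all genes 301 were lower and 97 higher, but 119 lower with upper-quartile scaling. They numbered 1178 and 1200 without a filter, 825 and 569 with DESeq2, and 416 and 193 with labelled sex. With the replicate block they were 390 and 258, and without both libraries numbered 2 they were 1116 and 607. At an adjusted p under 0.1 there were 1016 and 637, and with offsets for length and GC content 49 and 8. There were 0 with limma on log2 FPKM or the length offset. At an unadjusted p under 0.05 there were 3982 with that offset and 3874 and 3887 with limma. Leaving out each library gave 0 to 718 lower and 0 to 373 higher. Partner genes called lower numbered 2, but 1 with upper-quartile scaling, 6 without a filter, 7 with DESeq2, 5 without both libraries numbered 2, 0 with limma on FPKM or either offset, and 0 to 4 with each library left out. Those higher numbered 0, but 3 without a filter and 1 with DESeq2 or without both libraries numbered 2. The members' median of 0.09 was 0.0291 with limma-voom, 0.0323 with labelled sex, 0.0259 without both libraries numbered 2, 0.0234 and 0.0262 with limma on log2 FPKM plus 1 and 0.1, 0.0016 with the length offset, 0.0047 with both offsets, 0.0069 to 0.1925 with each library left out, and -0.0257 for members of at least 5 CPM. Fits that leave out libraries rest on fewer of them, and the cause of these differences was not tested. No scaling moved the median of all genes by over 0.1. The number of counts limits the precision of the scarce genes.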
